A study of Mus musculus with 12 samples.

Results

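Excitatory synapses of the cortex are held together by adhesion proteins that meet across the cleft, and they carry glutamate receptors that are anchored from inside the postsynaptic cell by scaffold proteins. The 56 mouse genes described here encode 28 adhesion proteins, 17 glutamate receptor subunits and 11 scaffold proteins, were chosen by name, and make up 56 of 21883 protein-coding genes in the RefSeq annotation of GRCm38.p6, whose chromosome coordinates mm10 shares. For each gene the question was whether its body, from annotated start to end, shared at least 1 bp with a peak of dimethylated lysine 36 of histone H3 (H3K36me2) in control or in Nsd1 conditional knockout (cKO) cortex. All 56 symbols were matched in the annotation.

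H3K36me2 is written by methyltransferases that include NSD1, and it typically lies in broad stretches between genes and along gene bodies, where it is read by the DNA methyltransferase DNMT3A. Neurexins, contactin-associated proteins and contactins are adhesion proteins of neurons whose genes are among the longest of the genome. AMPA, NMDA and kainate receptors are glutamate-gated channels, metabotropic receptors act through G proteins, and DLG, DLGAP, SHANK, HOMER and MAGI proteins form layers of the postsynaptic density.

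The peaks came from somatosensory cortex of mice aged 2.5 months, in 12 libraries, with 3 H3K36me2 and 3 input libraries for each genotype. In each control set of 3, 2 libraries were labelled Nsd1fl/+ and 1 was labelled Nsd1fl/fl. The control peaks themselves carry names that begin with WT, which differs from these labels, and the groups here follow the labels. All cKO libraries were labelled Nsd1Nex-cKO. In the Nex-Cre line, recombinase is made in excitatory neurons of the forebrain once they have stopped dividing, so that glia, vessels and interneurons of the tissue keep the gene. The libraries of a genotype were deposited as 1 peak list, with 231 peaks for controls and 3491 for cKO, so there was no value per animal, no replicate error and no test between genotypes. Nsd1 itself held 0 peaks in either list, which says nothing of the deletion, since the lists hold no coverage of its exons. Read depth per library was unknown, and a list's length moves with depth and with the efficiency of the immunoprecipitation, which cannot be told apart here from the genotype. In bulk tissue a change in the share of a cell type and a change in the mark per cell also cannot be told apart, and peak lists hold no marker of cell identity against which the tissue label could be checked. Intervals below are 95% intervals (Wilson for shares, exact Poisson for densities) and cover counting error only.

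In cKO cortex 17 of the 56 synaptic genes held a peak (30.4%, 19.9 to 43.3), against 5.47% of all protein-coding genes. The 17 genes held 25 cKO peaks, with at most 2 in a gene. In control cortex 1 of the 56 did (1.79%, 0.316 to 9.45), the adhesion gene Cadm2, against 0.260% of all protein-coding genes. The synaptic genes had a median length of 398 kb and the other protein-coding genes 17.1 kb, and a longer body is more likely to meet a peak, so the 30.4% and the 5.47% do not compare like with like. The shares of the other protein-coding genes within 6 length classes, applied to the lengths of the 56, gave 15.9 genes with a cKO peak and 0.728 with a control peak, beside the 17 and 1 that were found.

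**Figure D1:**
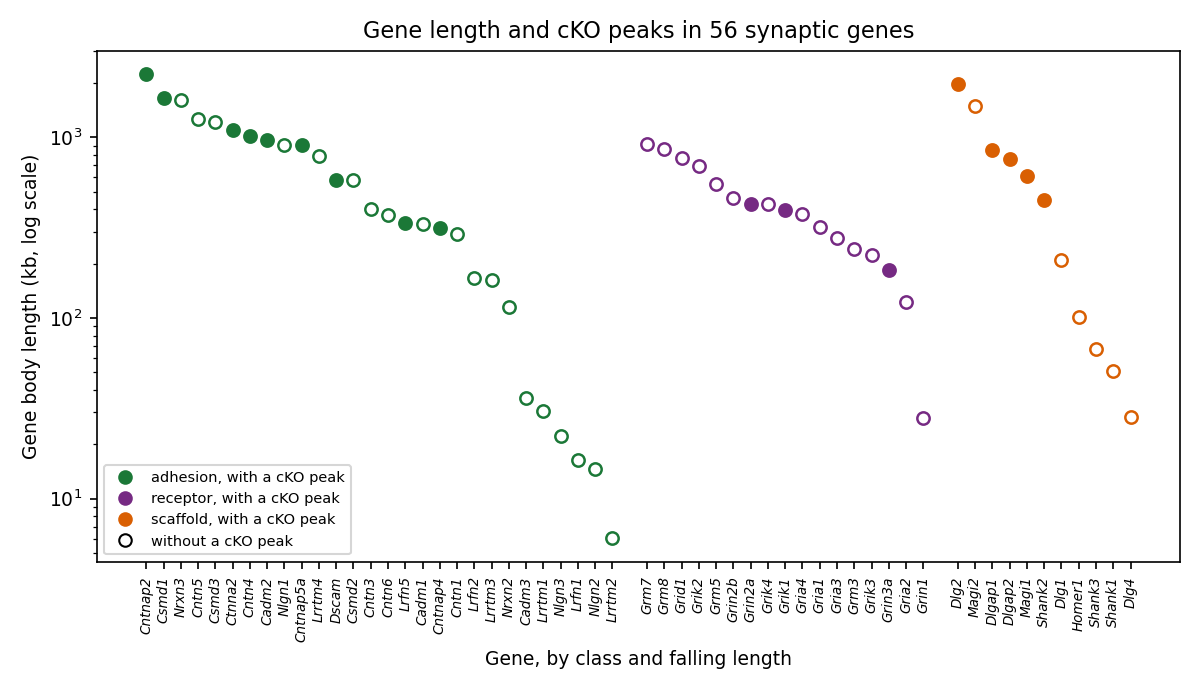
Length of the 56 gene bodies in kb on a log axis, by class and in falling order of length, with filled points for genes that held a cKO peak and open points for those that did not. The shortest gene with a peak is Grin3a at 184 kb, and the open points at and above 1000 kb are Nrxn3, Cntn5, Csmd3 and Magi2.

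Among adhesion genes 9 of 28 held a cKO peak (32.1%, 17.9 to 50.7), and length classes gave 8.40. Contactin-associated proteins are transmembrane relatives of the neurexins, and 3 of the 3 genes listed held a peak, where length classes gave 1.19. Genes of this family outside the list were not part of this count. Of 95 other synaptic genes, 13 held a cKO peak, and none of the 13 was a contactin-associated protein gene. The 3 of 3 therefore describes the listed genes and not the whole family. Cntnap2, a gene of 2241 kb whose product clusters potassium channels beside the node of Ranvier, held peaks at chr6:46825485-46826103 (619 bp, fold enrichment 2.92, −log10 q 0.0832) and chr6:47159178-47159411 (234 bp, fold 2.28, −log10 q 0.0209). These lay at 78.8% and 93.7% of the way from its start to its end, so both were in the distal part of the gene. Cntnap5a (903 kb) held peaks at chr1:115887476-115887622 (147 bp, fold 3.43, −log10 q 0.720) and chr1:116363000-116363172 (173 bp, fold 2.09, −log10 q 0.556). Cntnap4 (313 kb), whose product acts at interneuron synapses, held 1 at chr8:112651078-112651629 (552 bp, fold 2.93, −log10 q 0.251). The first Cntnap5a peak had the highest fold of the 25, at rank 256 of the 3491 cKO peaks. The strand of Cntnap4 and Cntnap5a was not used here, and their peaks lay at 26.1%, 22.5% and 75.2% of the body counted from the lower coordinate.

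The contactins are lipid-anchored adhesion proteins that bind contactin-associated proteins or amyloid precursor family proteins, and 1 of the 5 genes listed held a peak, where length classes gave 1.96. Cntn4 (1023 kb) held peaks at chr6:106126648-106126853 (206 bp, fold 3.11, −log10 q 0.305) and chr6:106596636-106596925 (290 bp, fold 3.24, −log10 q 0.449), 470 kb apart, at 43.9% and 89.9% of the body. Its relatives Cntn5 (1271 kb), Cntn3 (401 kb), Cntn6 (371 kb) and Cntn1 (291 kb) held 0. Cntn6 lies before Cntn4 on chromosome 6, and the cKO peak nearest to it, 1263 kb away, was the first peak of Cntn4.

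The immunoglobulin-type adhesion genes Cadm2 and Dscam held 3 cKO peaks. Cadm2 (966 kb), a synaptic cell adhesion gene, held 1 at chr16:66961228-66961441 (214 bp, fold 2.11, −log10 q 0.104), and the control list had a peak 3 bp longer at its place, chr16:66961225-66961441 (217 bp, fold 2.10, −log10 q 0). It was the only one of the 56 genes with a peak in both lists, against 0.142% of all protein-coding genes, and both calls were weak. A −log10 q of 0 is a q-value of 1, and the fold of the cKO peak ranked 3231 of 3491. Dscam (584 kb), which guides self-avoidance of neurites, held 2 narrow peaks 28.5 kb apart, at chr16:96723329-96723475 (147 bp, fold 2.91, −log10 q 0.138) and chr16:96751859-96752005 (147 bp, fold 3.06, −log10 q 0.185), the shortest spacing in a synaptic gene. A long noncoding RNA gene, Gm32509, overlaps both, so either gene could be named for them. Cadm1 (332 kb) and Cadm3 (36.2 kb) held 0.

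Lrfn5 (335 kb), a leucine-rich repeat protein that induces presynaptic contacts, held peaks at chr12:61633413-61633807 (395 bp, fold 2.399, −log10 q 0) and chr12:61705194-61705509 (316 bp, fold 3.21, −log10 q 0.592). With 5.97 peaks per Mb it had the highest density of the 56 genes, from 2 peaks. Csmd1 (1643 kb), which encodes a membrane protein with CUB and sushi domains, held peaks at chr8:15973080-15973299 (220 bp, fold 2.76, −log10 q 3.01) and chr8:16059422-16059901 (480 bp, fold 2.75, −log10 q 0). The first is the strongest adhesion call by q, at rank 204 of 3491, and the neighbour 86.5 kb away has almost the same fold with a q-value of 1. Csmd2 (581 kb) and Csmd3 (1212 kb) held 0. Ctnna2 (1098 kb), a neuronal alpha-catenin that links cadherins to actin, held 1 peak at chr6:77957152-77957580 (429 bp, fold 3.03, −log10 q 0.603). It lay at 2.04% of the body, which in a gene of this length is 22.4 kb from its start. Lrrtm1 lies inside the body of Ctnna2, but the peak was 697 kb from it.

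The neurexins and their postsynaptic partners held no peak in either list. The neurexin genes Nrxn3 (1612 kb) and Nrxn2 (114 kb), the neuroligin genes Nlgn1 (911 kb), Nlgn2 (14.7 kb) and Nlgn3 (22.2 kb), and the leucine-rich repeat genes Lrrtm4 (791 kb), Lrrtm3 (162 kb), Lrrtm1 (30.7 kb) and Lrrtm2 (6.02 kb) made up 9 genes without a peak. Length classes gave 0.729 genes for the neurexins, 0.422 for the neuroligins and 0.571 for the Lrrtm genes. Each of these numbers is below 1, so a count of 0 in a single family cannot be told apart from what length gave. Lrfn2 (166 kb) and Lrfn1 (16.4 kb) also held 0.

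The 3 longest synaptic genes without a peak differed in how near a cKO peak came. Nrxn3, whose product is a presynaptic adhesion receptor, spans chr12:88722701-90334935, and a peak of fold 2.79 and −log10 q 0 lay 19.98 kb outside it. The scaffold gene Magi2 spans chr5:19219387-20704792, with the nearest peak 295 kb away at fold 3.83 and −log10 q 5.73. Cntn5, a contactin gene, spans chr9:9634223-10904775, with the nearest 37.9 kb away at fold 2.76 and −log10 q 0. A body extended by 5 kb would therefore still have met no peak in any of the 3.

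**Figure D2:**
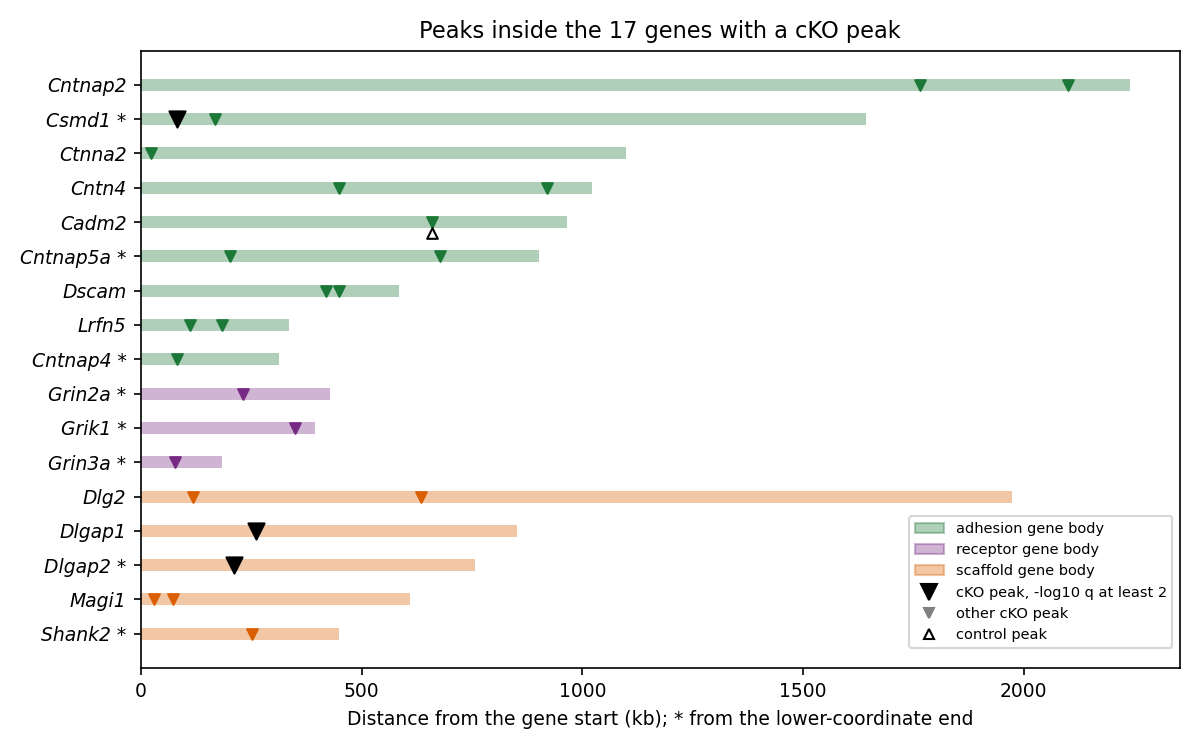
Bodies of the 17 genes with a cKO peak drawn to scale from the gene start (from the lower-coordinate end for names with an asterisk), with downward triangles for cKO peaks, large and black where −log10 q was at least 2, and an open upward triangle for the control peak. The 3 black triangles lie in Csmd1, Dlgap1 and Dlgap2, and the control peak lies under the cKO peak of Cadm2.

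A cKO peak was held by 3 of 17 glutamate receptor genes (17.6%, 6.19 to 41.0), where length classes gave 4.48, and 0 held a control peak. Grin2a (428 kb), which encodes the NMDA receptor subunit GluN2A of mature cortex, held 1 at chr16:9798928-9799105 (178 bp, fold 2.81, −log10 q 0.194). Grin3a (184 kb), for an NMDA subunit that lowers calcium entry, held 1 at chr4:49737991-49738186 (196 bp, fold 2.93, −log10 q 0.219). Grik1 (395 kb), a kainate receptor subunit gene, held 1 at chr16:88244096-88244334 (239 bp, fold 2.97, −log10 q 0.113). All 3 peaks were single, had folds between 2.81 and 2.97, and carried q-values above 0.5.

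The AMPA receptor genes Gria1 (319 kb), Gria2 (123 kb), Gria3 (278 kb) and Gria4 (378 kb), which encode the channels of fast transmission, held 0 peaks, where length classes gave 0.953 genes. The metabotropic receptor genes Grm7 (922 kb), Grm8 (860 kb), Grm5 (551 kb) and Grm3 (240 kb) held 0 over 2.57 Mb, where length classes gave 1.29. The delta receptor gene Grid1 (763 kb), the kainate receptor genes Grik2 (696 kb), Grik4 (427 kb) and Grik3 (224 kb), and the NMDA receptor genes Grin2b (460 kb) and Grin1 (28.01 kb) held 0 as well. The 5 receptor genes of 500 to 1000 kb were thus all without a peak, against 3 of 6 adhesion genes and 3 of 3 scaffold genes of that length and 34.0% of the other protein-coding genes. With 5 genes the Wilson interval of the receptor share reached 43.4%, which includes 34.0%.

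Of the scaffold genes 5 of 11 held a cKO peak (45.5%, 21.3 to 72.0), where length classes gave 3.07. Dlgap1 (852 kb), which encodes a protein that bridges DLG and SHANK scaffolds, held a peak at chr17:70230113-70230360 (248 bp, fold 2.74, −log10 q 2.77), 261 kb into the gene. Dlgap2 (758 kb), its paralog, held a peak at chr8:14306825-14307352 (528 bp, fold 1.67, −log10 q 4.92), the lowest fold and the highest −log10 q of the 25. Of all 3491 cKO peaks, 72 (2.06%) had a fold of 2 or less with a −log10 q of at least 2, and the Dlgap2 peak was the only one of the 25 among them. The q-value weighs read number as well as ratio, and read numbers were not analysed here.

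Dlg2 (1973 kb), which encodes the membrane-associated guanylate kinase PSD-93, held peaks at chr7:90594867-90595092 (226 bp, fold 2.79, −log10 q 0.0391) and chr7:91110644-91110961 (318 bp, fold 3.07, −log10 q 0.253), 516 kb apart. Magi1 (608 kb), for a scaffold of junctions and synapses, held peaks at chr6:94212016-94212162 (147 bp, fold 3.10, −log10 q 0.272) and chr6:94253450-94253790 (341 bp, fold 2.76, −log10 q 0), at 11.8% and 4.98% of the body. The noncoding RNA genes 4930511A08Rik and Gm52867 overlap the first Magi1 peak. Shank2 (448 kb), a core scaffold of the postsynaptic density, held 1 at chr7:144228565-144228865 (301 bp, fold 2.83, −log10 q 0.0100). The other scaffold genes, Magi2 (1485 kb), Dlg1 (210 kb), Homer1 (101.4 kb), Shank3 (67.2 kb), Shank1 (51.2 kb) and Dlg4 (28.3 kb), the last for PSD-95, held 0. Among scaffold genes those with a peak had a median length of 758 kb and those without 84.3 kb, while receptor genes with and without a peak were of like length (medians 395 and 403 kb).

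The synaptic genes with a peak were mostly long, with a median of 758 kb against 291 kb for those without. Under 20 kb 0 of 3 held a cKO peak, against 1.47% of the other protein-coding genes, and at 20 to 100 kb 0 of 7, against 6.73%. Of the 6 genes of 100 to 200 kb 1 did, against 14.9%. At 200 to 500 kb 5 of 17 did (29.4%, 13.3 to 53.1), against 26.8% of the others. At 500 to 1000 kb the count was 6 of 14 (42.9%, 21.4 to 67.4), against 34.0%, and from 1000 kb 5 of 9 (55.6%, 26.7 to 81.1), against 58.0%. In each class the interval of the synaptic genes included the share of the other genes.

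**Figure D3:**
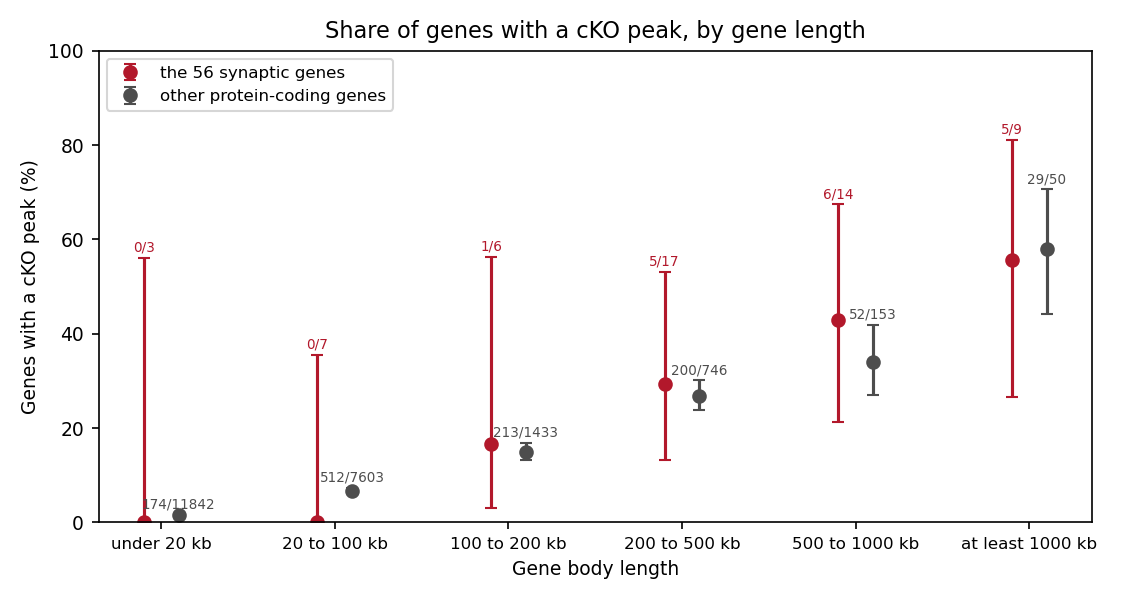
Percent of genes with a cKO peak by length class for the 56 synaptic genes and for all other protein-coding genes, with Wilson 95% intervals and counts above each. Both series climb with length, from 0 of 3 and 174 of 11842 under 20 kb to 5 of 9 and 29 of 50 from 1000 kb.

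While longer genes more often held a peak, they held fewer peaks per Mb. Other protein-coding genes held 2.02 cKO peaks per Mb of body under 20 kb, 1.17 at 200 to 500 kb, 0.620 at 500 to 1000 kb and 0.699 from 1000 kb. The synaptic genes held 1.03 (0.376 to 2.23), 0.837 (0.383 to 1.59) and 0.664 (0.304 to 1.26) in the last 3 of these classes. Over genes of at least 200 kb the densities were 0.796 per Mb (0.510 to 1.18) in 40 synaptic genes and 0.951 (0.856 to 1.05) in 949 others. The 3 functional classes had 0.889 (adhesion, 0.497 to 1.47), 0.288 (receptor, 0.0349 to 1.04) and 1.11 (scaffold, 0.444 to 2.28), and these intervals overlapped each other.

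The stretches beside the same 40 genes, each as long as the gene and taken on both sides without the bodies of the 56, held 69 cKO peaks over 58.2 Mb, or 1.19 per Mb (0.923 to 1.501). The bodies of these genes held 0.796 per Mb (0.510 to 1.18), a lower value whose interval overlaps that of the flanks. For receptor genes the values were 2 body peaks over 6.94 Mb and 13 flank peaks over 13.9 Mb, or 0.288 against 0.936 per Mb (0.499 to 1.60). For scaffold genes they were 1.11 against 1.18 (0.663 to 1.95), and for adhesion genes 0.889 against 1.32 (0.955 to 1.78). The flank measure was chosen after the data were seen.

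**Figure D4:**
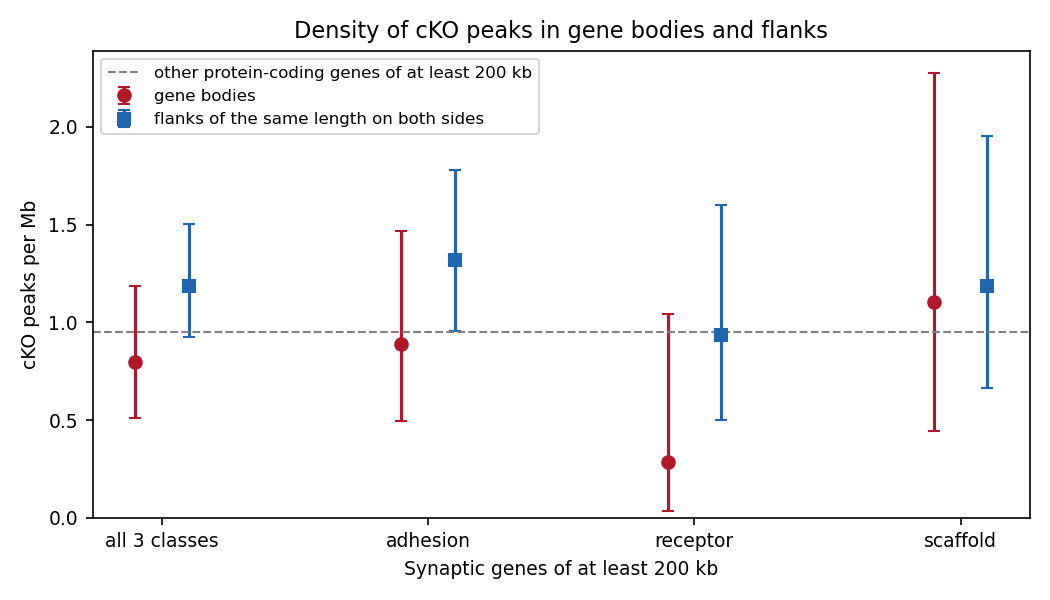
cKO peaks per Mb in the bodies (circles) and in the flanks of the same length on both sides (squares) of synaptic genes of at least 200 kb, with exact Poisson 95% intervals, and a dashed line at 0.951 for other protein-coding genes of that length. The body value lies below the flank value in every class, and the receptor bodies have the lowest density, 0.288, from 2 peaks.

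At least 2 cKO peaks were held by 8 of the 56 genes, which were the adhesion genes Cntn4, Cntnap2, Cntnap5a, Csmd1, Dscam and Lrfn5 and the scaffold genes Dlg2 and Magi1, against 0.640% of all protein-coding genes. The shares of other protein-coding genes with at least 2 peaks in the same length classes gave 3.71 genes, and 20 length bins of equal gene number gave 2.55. The top bin of the 20 takes in every gene of at least 200 kb, so these bins match long genes more coarsely than the classes. From 1000 kb, 4 of 9 synaptic genes and 18.0% of the others had at least 2, at 500 to 1000 kb 3 of 14 and 7.19%, and at 200 to 500 kb 1 of 17 and 5.63%. This count was chosen after its values were seen, and it fell to 2 genes among peaks at or above the median fold of their list and to 0 at a q-value under 0.05.

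Along the bodies the 25 peaks were spread, with 6, 6, 5, 5 and 3 in 5 successive parts of equal length from start to end. The median lay at 41.5% of the body (26.1 to 68.3), and at 51.3% (45.5 to 55.1) over 616 gene and peak pairs of other protein-coding genes of at least 100 kb, whose 5 parts held 118, 136, 113, 123 and 126. Where strand was listed, the medians were 43.9% (11.8 to 76.7) for 15 peaks and 45.9% (41.2 to 51.9) for 467 pairs of the others. Of the 25 peaks 0 lay within 5 kb of either end of the gene, where 34 of the 616 lay. The synaptic genes with a peak had a median length of 758 kb, and the genes of the 616 pairs were not matched to them in length. The peak nearest an end was that of Ctnna2, 22.4 kb inside. Among genes without a peak, the closest outside were 15.4 kb from Gria1, 19.1 kb from Nlgn3 and 19.98 kb from Nrxn3. Strand was taken from the RefSeq promoter table for 34 of the 56 genes, and the start was the outer end of the body on that strand. Listed transcript starts can lie elsewhere, and the nearest ones to the Magi1 peaks were 298 and 340 kb away. Positions in the other 22 genes were counted from the lower coordinate.

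Transcripts can also start inside long genes. Of the transcript starts listed for 9 of the 17 genes with a peak, 4 lay within 25 kb of a cKO peak of the same gene. They were 2 neighbouring internal starts of Cntn4, at 7.71 and 7.88 kb from the edge of the same peak, 1 internal start of Dlg2 at 19.9 kb and the outer start of Ctnna2 at 22.1 kb. The promoter window of the nearest start of each of these genes, from 250 bases before to 50 after it, is shown to compare them. They are RefSeq sequences of GRCm38.p6, at chr6:106118692-106118991 (plus strand), chr7:91090536-91090835 (plus strand) and chr6:77979618-77979917 (minus strand), with each CG dinucleotide in capitals.
Cntn4: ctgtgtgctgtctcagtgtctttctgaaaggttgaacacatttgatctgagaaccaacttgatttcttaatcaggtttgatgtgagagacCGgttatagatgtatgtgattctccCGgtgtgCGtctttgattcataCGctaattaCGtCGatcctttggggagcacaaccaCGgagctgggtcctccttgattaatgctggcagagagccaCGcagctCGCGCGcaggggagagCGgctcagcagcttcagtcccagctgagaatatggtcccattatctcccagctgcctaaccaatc
Dlg2: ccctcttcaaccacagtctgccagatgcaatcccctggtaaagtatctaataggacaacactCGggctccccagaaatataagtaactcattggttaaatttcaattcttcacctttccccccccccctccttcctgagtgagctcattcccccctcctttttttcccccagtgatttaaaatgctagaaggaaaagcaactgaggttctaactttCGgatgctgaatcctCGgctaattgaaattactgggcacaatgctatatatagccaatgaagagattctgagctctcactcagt
Ctnna2: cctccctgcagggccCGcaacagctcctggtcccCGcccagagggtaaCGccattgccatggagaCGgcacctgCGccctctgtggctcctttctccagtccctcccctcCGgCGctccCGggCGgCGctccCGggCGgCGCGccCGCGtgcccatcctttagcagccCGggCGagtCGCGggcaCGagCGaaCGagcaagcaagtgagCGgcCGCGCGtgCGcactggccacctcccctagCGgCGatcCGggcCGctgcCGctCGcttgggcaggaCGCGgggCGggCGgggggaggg
The dinucleotide CG, which reads the same on both strands, occurred 12 times in the Cntn4 window shown and 4 times in that of the other Cntn4 start, 3 times in that of Dlg2 and 38 times in that of Ctnna2, with G and C at 44.7% of the bases of Dlg2 and 75.3% of those of Ctnna2. At least 10 were held by 12066 of 21262 windows of protein-coding genes (56.7%) and by 32 of 57 windows of the synaptic genes (56.1%). The 3 windows shown therefore ranged from a CG-poor to a CG-rich start, and none of the 57 was itself touched by a cKO peak.

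The 25 peaks had a median fold enrichment of 2.91 (2.76 to 3.03, range 1.67 to 3.43), against 2.83 (2.81 to 2.86) for 1346 cKO peaks in other protein-coding genes. Their median width was 239 bp (206 to 318), against 254 bp (243 to 264). In Csmd1, Dlgap1 and Dlgap2 lay the 3 of 25 with a q-value under 0.05 (12%, 4.17 to 29.96), which 268 of the 1346 also had (19.9%, 17.9 to 22.1). These 3 genes of 56 stand beside 1.16% of all protein-coding genes with a cKO peak of that q, and length classes gave 2.44. At a −log10 q of at least 2 the same 3 peaks were left, beside 0.676% of all protein-coding genes and 1.25 from length classes. The q-value was at least 0.5 for 16 of 25 peaks (64.0%, 44.5 to 79.8) and for 669 of 1346 (49.7%, 47.0 to 52.4). Most calls in synaptic genes were thus ones that the caller's own adjustment over the genome did not separate from background. Of the 25 peaks 4 had a width of 147 bp, the smallest in the cKO list, as had 459 of all 3491.

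**Figure D5:**
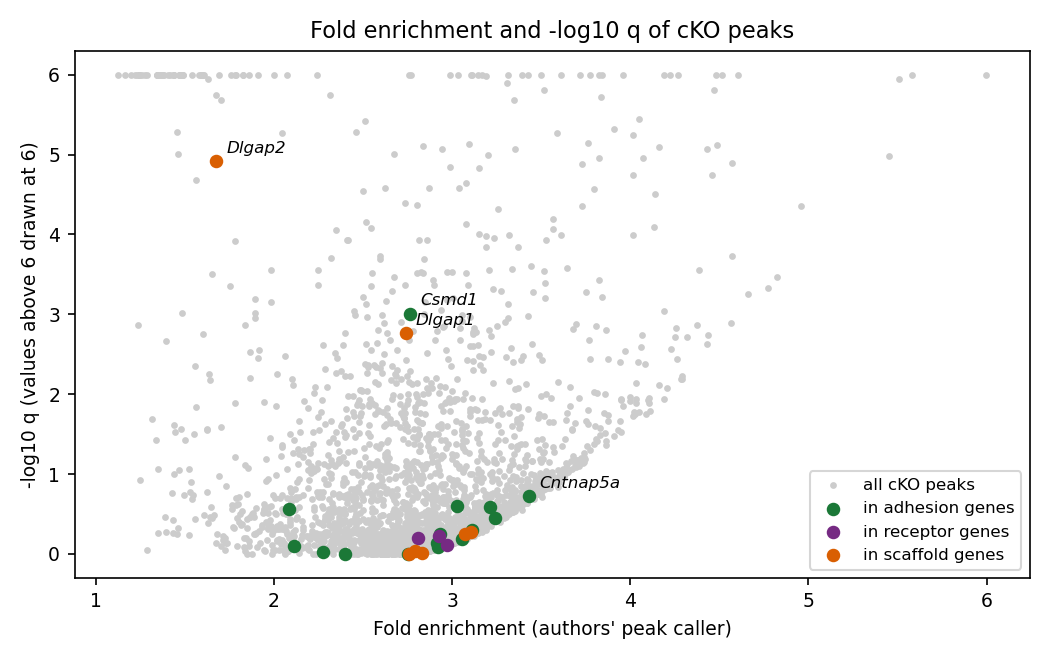
Fold enrichment of each cKO peak against its −log10 q, both from the authors' peak caller, with grey points for all 3491 peaks and coloured points for the 25 peaks in synaptic genes, and values above 6 drawn at 6. Most coloured points lie near the lower edge, Csmd1 and Dlgap1 lie near 3, and Dlgap2 lies apart at a fold of 1.67 and a −log10 q of 4.92.

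Synaptic genes outside the 56, listed by family or partnership, gave 13 of 95 with a cKO peak (13.7%, 8.17 to 22.0), where length classes gave 16.2, and 0 with a control peak. High folds were found in Ctnna3, an alpha-catenin gene (3.63), Cacng3, an AMPA receptor auxiliary subunit gene (3.56), Cntn2 (3.26), Grip1, a scaffold that binds AMPA receptors (3.19), and Adgrl3, a latrophilin gene (3.18). Il1rapl2 (3.02), the netrin-G ligand gene Lrrc4c (3.00) and Sdk2 (2.81) followed, the last of them below the median of 2.82 of all cKO peaks. Among these genes named by fold, only Il1rapl2 had a q-value under 0.05 (−log10 q 1.38). By q the first was Mdga2, which encodes a protein that blocks neuroligin binding, with a peak at chr12:67059349-67059545 (197 bp, fold 1.46, −log10 q 5.00). Like the Dlgap2 peak, it paired a fold below 2 with a low q-value, and it was named after its values were seen.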

How the data were processed

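The submitters' processing notes list Cutadapt, Bowtie2 2.4.4, MACS2 and the build mm10, with no role for any of them. How reads were filtered and with which threshold peaks were called is not given in the sources used here. Per the labels, all libraries of a genotype name the same file, and the authors deposited 1 list of broad peaks per genotype. Fold enrichment, as deposited, is the caller's ratio of a peak to its local background, each list against its own. The deposited −log10 q is the caller's q-value on a log scale. The remaining peak columns were not used. Sample groups were read from the titles. Positions were made 1-based and compared with RefSeq gene bodies of GRCm38.p6 on chromosomes 1 to 19, X and Y. Exons and genome sequence were not used here, so exonic and intronic places were not analysed here.

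The number given by length classes sums, over the genes of a group, the share with a peak among protein-coding genes outside the 56 (and outside the group) of the same class (limits at 20, 100, 200, 500 and 1000 kb). Medians carry order-statistic intervals. All member genes with a peak are named, and of the other synaptic genes those among the 10 with the highest folds, apart from items not reported here. The 56 genes, the other lists and the measures were chosen with earlier results of these data known. The overlap procedure was tested on simulated peaks. Alternatives were other q and fold limits, overlap of at least 1 in 2 peak bases, bodies extended by 5 kb, peaks under 5 kb apart joined, grouped peaks left out (at least 3 others within 100 kb), other length bins and autosomes alone. Calculations used Python 3.11.15 with numpy 2.4.6, pandas 2.3.3 and scipy 1.17.1.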

Additional observations from a re-analysis of the deposited data

How the results depend on the processing

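No paired analysis was possible because the libraries of a genotype share a single list with no value per replicate, and for the same reason no replicate could be left out. The counts of genes with a peak (17 for all classes, 9 adhesion, 3 receptor, 5 scaffold, 13 other synaptic genes, 1 in controls) and of 25 peaks were the same with at least 1 in 2 peak bases inside, with bodies extended by 5 kb, with peaks joined and without grouped peaks. They depended on the peak threshold. At a q-value under 0.05 they were 3, 1, 0, 2, 4 and 0 genes and 3 peaks, and at a −log10 q of at least 2 they were 3, 1, 0, 2, 1 and 0 genes and 3 peaks. At or above the median fold of the own list 14 peaks, 3 scaffold genes, 8 other synaptic genes and 0 control genes were left, with 12 of 17 genes in all. The number given by length classes was 15.9, and became 2.44, 1.25 and 9.68 under these 3 thresholds, 12.8 with 20 length bins and 15.8 on autosomes alone. The 20 bins place all genes of at least 200 kb in the same bin, so they match long genes more coarsely. The 3 peaks with a q-value under 0.05 had a median fold of 2.74 and a median −log10 q of 3.01, against 2.91 and 0.219 for all 25, the latter by construction. Depth could not be weighed, since the lists hold no reads.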

Other observations

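By chromosome, a cKO peak was held by 3 of 3 synaptic genes on chromosome 8 (Cntnap4, Csmd1, Dlgap2), where length classes gave 1.19, and by 4 of 5 on chromosome 16 (Cadm2, Dscam, Grin2a, Grik1), where they gave 1.48. On chromosome 6 it was 4 of 11 (Cntnap2, Cntn4, Ctnna2, Magi1), beside 3.97 from length classes, and on chromosome 7 2 of 5 (Dlg2, Shank2), beside 1.27. On 12 of the 20 chromosomes with synaptic genes 0 held a peak, and length classes gave 5.53 for their 23 genes. The chromosomes were compared after their values were seen, and these counts were not tested.

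The cKO peaks nearest to some genes without a peak were stronger calls than any inside the 56. Grik3 had a peak of fold 3.82 and −log10 q 8.13 at 266 kb, and the peak near Magi2 had a −log10 q of 5.73. The genes farthest from any cKO peak were Cntn3 at 2013 kb and Lrrtm4 at 1324 kb, more than the length of either body. Peaks crowded among at least 3 others within 100 kb numbered 0 of the 25, against 108 of 1346 in other protein-coding genes (8.02%).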
